A study of Mus musculus with 6 samples.

Results

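The 62 genes described here encode the subunits of voltage-gated sodium, calcium, potassium and pacemaker channels and of the other potassium channel families, as measured by RNA-seq in mouse hearts. They are the protein-coding genes whose symbols begin with Kcn, Hcn or Cacn, or with Scn and a digit, and whose mean over the control libraries was at least 0.5 CPM, the read count scaled to a fixed library size. By name alone 138 protein-coding genes fell in these families, among 21807 protein-coding genes of the table. Members were chosen by their measured level in the control hearts, so their presence in control hearts is a description and not a result. Just inside the threshold were Scn2a (0.767 deposited CPM as knockout mean, 0.551 as control mean), Scn4a (0.716 knockout, 0.594 control) and Kcnab1 (0.608 knockout, 0.621 control). Just outside were Kcnt1 (0.117 as knockout mean, 0.4998 as control mean), Kcna6 (0.355 knockout, 0.473 control) and Kcnk13 (0.506 knockout, 0.391 control).

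The hearts came from 11-month-old mice, 3 of them Ybx1cmKO animals with a cardiomyocyte-specific knockout of Ybx1 and 3 littermate controls. The sources used here do not give the Cre driver, the targeted allele, the genotype of the controls beyond that label, the sex of the animals or whether RNA of several animals was pooled. The deletion was aimed at cardiomyocytes while the RNA came from homogenised heart tissue, with no chamber or cell sort named, so transcripts of other cells entered each library. In such bulk samples fewer cells of a type and less RNA per cell cannot be told apart.

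Heart muscle fires an action potential through these proteins in sequence. Sodium channels give the upstroke, L-type calcium channels carry the calcium that triggers contraction, and several potassium currents return the membrane to rest, with the transient outward and delayed rectifier currents prominent in mouse ventricle. The pore-forming alpha subunits work with auxiliary subunits that set how many channels reach the membrane and how fast they open and close. Ybx1 encodes a Y-box protein that binds RNA and DNA, and the question was which transcripts differ when cardiomyocytes lack it.

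Libraries held 13456753, 14651934 and 15141525 counts in knockout hearts 1, 2 and 3 and 12270796, 13469419 and 14524785 counts in control hearts 1, 2 and 3. Ybx1 itself was at 203, 171 and 109.7 normalised CPM in the knockout hearts and at 849, 810.2 and 895 CPM in the control hearts, in the direction of the labels (log2 fold change -2.40, SE 0.27). Its own edgeR adjusted p was 0.148, above the threshold of 0.05. DESeq2 gave it an adjusted p of 2.05e-16 and limma-trend one of 0.0508. The edgeR test thus did not call even the targeted gene. Knockout heart 3 stood apart in composition, with 10.7% of its counts in mitochondrial rRNA against 20.5% to 26.3% in the other 5 libraries. Malat1, a nuclear RNA, was at 668 deposited CPM there and at 3317 to 7923 CPM elsewhere. Knockout heart 3 and control heart 1 expressed Xist (201 and 387 deposited CPM) and the other 4 libraries had at most 2.79 CPM. The 10 ventricular cardiomyocyte markers, all tested and none at 0, summed to 20940, 26810 and 26030 normalised CPM in the knockout hearts and to 29480, 25330 and 29850 CPM in the control hearts. Of the 9 atrial markers 8 were tested, and their sum was 140.3, 354 and 351 CPM in knockout and 175, 273 and 450.1 CPM in control hearts. The atrial sum varied widely within both groups. All 8 fibroblast and all 8 macrophage markers lay above 0, with median log2 fold changes of 0.35 and 0.39.

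No channel gene passed edgeR's quasi-likelihood test at a Benjamini-Hochberg adjusted p of 0.05 over the 13717 genes tested, and in that comparison 0% of all tested genes passed. Of the 62 members 48 passed the filter on low values (at least 1 CPM in 3 of the 6 libraries) and were tested, and the smallest adjusted p among them was 0.694. DESeq2 and limma-trend also called 0 of the 48, where DESeq2 called 0.109% and limma-trend 0% of all tested genes. At an unadjusted edgeR p below 0.05 there were 5 members, which is 10.4% of those tested beside 5.14% of all tested genes. Of these 5, 1 lay higher (2.08% of members, beside 2.69% of all tested genes) and 4 lay lower (8.33%, beside 2.45%). Cacna1g and Kcnip2 were among those that lay lower.

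The direction of the fitted change was upward in 20 members and downward in 28, so 41.7% lay above 0 beside 51.1% of all tested genes. Their median log2 fold change, knockout relative to control, was -0.10, with 0.01 as the median of all tested genes. This median sat near 0 and took the other sign when no scaling factor between libraries was used (0.01 with library totals only, where the median of all genes moved to 0.17). The 3 knockout hearts lay wholly above the 3 control hearts in 2 members, Kcnd2 among them, which is 4.17% of members beside 6.28% of all tested genes. They lay wholly below in 5 members, with Cacna1d, Cacna1g and Kcnip2 among them, or 10.4% of members beside 5.84% of all tested genes. Over both directions 14.6% of members and 12.1% of all tested genes had groups that did not overlap. These comparisons used TMM-normalised CPM. In deposited CPM Cacna1g and Kcnd2 stayed without overlap, while Cacna1d and Kcnip2 overlapped. The shares were not taken on that scale. With 3 hearts a group, the smallest two-sided p of an exact permutation test on 1 gene is 0.1.

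**Figure D1:**
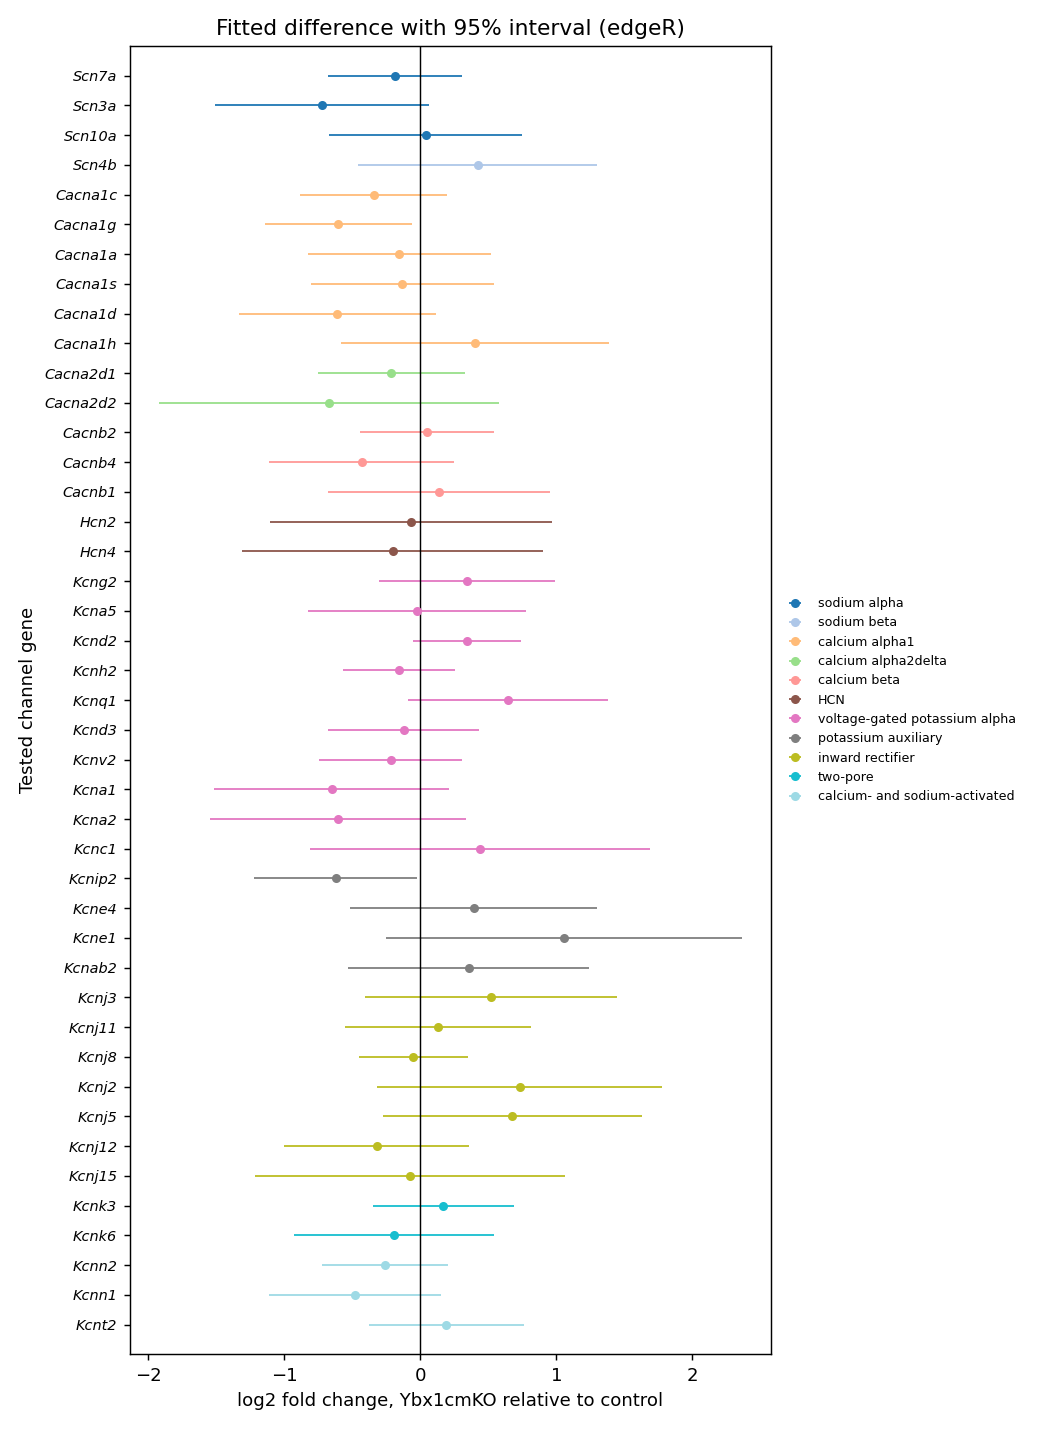
Fitted log2 fold change, Ybx1cmKO relative to control (horizontal axis), for 43 of the 48 tested channel genes (vertical axis, coloured by role), with points for the edgeR estimate and bars for the 95% confidence interval. The intervals of Cacna1g and Kcnip2 lie below 0, the other intervals shown include 0, and no gene passed after adjustment over all tested genes.

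Precision limited what could be seen. The 95% interval lay within 2-fold either way in 22 of the 48 members (45.8%), beside 63.5% of all tested genes. The spread between hearts was larger among knockouts, with a median coefficient of variation of 31.1% in knockout and 22.2% in control hearts over the tested members. The knockout value was the larger in 33 of 48 members (68.8%), beside 71.0% of all tested genes. Among the 14 members that were not tested were Cacnb3, Cacng6, Kcna4, Kcnab1, Kcnip3, Kcnk1, Kcnk2, Kcnk5, Kcnma1, Kcnmb1, Kcnn3, Scn2a and Scn4a. The means of the 14 ranged from 0.573 to 0.966 normalised CPM in knockout hearts and from 0.584 to 1.14 CPM in control hearts, the knockout mean was the higher in 7 of the 14, and the groups overlapped in all 14.

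Per kilobase of annotated exon, a rough scale for comparing genes of different length, 3 potassium channel genes led the list in both groups. Kcng2, an electrically silent modifier of other voltage-gated potassium channels, averaged 32.2 normalised CPM per kb in knockout and 25.4 in control hearts. Kcnk3, a tandem-pore-domain background channel that is sensitive to acid, was at 25.7 CPM per kb in knockout and 22.8 in control hearts. Kcna5, which carries a slowly inactivating delayed rectifier current of mouse heart, was at 16 CPM per kb in knockout and 16.3 in control hearts. The ranges of Kcng2 and Kcnk3 over the hearts overlapped. Within a heart Kcng2 was the higher per kb in all but control heart 1, where Kcnk3 was slightly higher. Their order was not tested. In control hearts Kcnip2 came next (5.82 CPM per kb in knockout, 8.95 in control), and Kcnj8 was at 4.96 CPM per kb in knockout and 5.15 in control hearts. In knockout hearts Kcnj3 took the fourth place at 6.42 CPM per kb, against 4.48 in control hearts, with knockout heart 3 far above its group. Exon lengths came from GENCODE M21, an annotation on another build than the authors used, and all 62 genes had one. Each is the merged length of all annotated exons of a gene, not of the transcripts expressed. Levels compared between genes are therefore approximate.

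**Figure D2:**
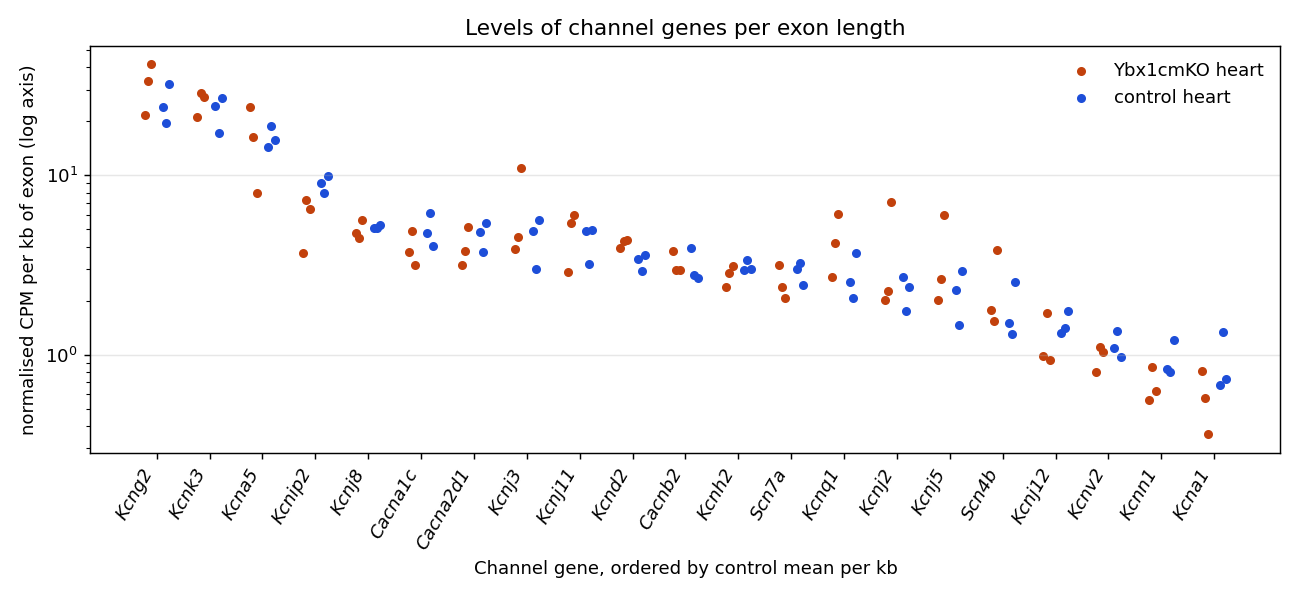
Normalised CPM per kb of exon (vertical log axis) in each knockout heart (left of each pair) and control heart (right) for 21 of the 25 channel genes with the highest control mean per kb (horizontal axis). The means of Kcng2, Kcnk3 and Kcna5 stand above the rest in both groups, and knockout heart 3 is the high point in Kcnj3, Kcnj2 and Kcnj5.

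The sodium channel alpha subunits described here are known from nerve, glia and skeletal muscle. Scn3a, a channel of developing neurons, was at 2.71, 2.87 and 1.55 CPM in knockout and 2.86, 5.43 and 3.44 CPM in control hearts (log2 fold change -0.72, interval -1.51 to 0.06), and of the knockout hearts only knockout heart 2 reached the control range, at its lower end. Scn7a, a sodium-sensing relative found in Schwann cells, was at 23.2, 17.5 and 15.2 CPM in knockout and 21.9, 23.8 and 18 CPM in control hearts (log2 fold change -0.19, interval -0.68 to 0.30). Scn10a, a channel of sensory neurons, was at 1.96, 1.82 and 1.61 CPM in knockout and 2.02, 1.20 and 1.98 CPM in control hearts (log2 fold change 0.04, interval -0.67 to 0.75). Scn7a and Scn10a thus overlapped between the groups. Scn4a, the channel of skeletal muscle, was at 0.745, 0.378 and 0.831 CPM in knockout and 0.726, 0.276 and 0.794 CPM in control hearts and Scn2a at 0.881, 0.529 and 0.721 CPM in knockout and 0.645, 0.645 and 0.463 CPM in control hearts, both under the test's filter. The 13 Schwann and neuronal markers, of which 6 were tested, Th was at 0 in all hearts and Scn7a is itself a member, summed to 93.0, 71.3 and 77.9 CPM in knockout and 72.1, 77.5 and 72.0 CPM in control hearts.

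Auxiliary beta subunits of sodium channels are membrane proteins with an immunoglobulin fold that modulate gating and take part in cell adhesion. Scn4b, one of them, was at 8.88, 7.71 and 19.0 CPM in knockout and 7.5, 6.45 and 12.6 CPM in control hearts (log2 fold change 0.42, interval -0.46 to 1.30). Its excess came from knockout heart 3, without which the log2 fold change was -0.11.

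No calcium channel pore gene passed the threshold. Of the 6 members of the alpha1 family, all tested, 1 lay above and 5 below 0, with a median log2 fold change of -0.25. Cacna1c, the pore of the cardiac L-type current, was at 78.8, 103 and 67.2 CPM in knockout and 101, 129.6 and 84.9 CPM in control hearts (log2 fold change -0.34, interval -0.88 to 0.20). Knockout heart 2 lay within the control range. Cacna1d, an L-type channel of the sinoatrial node and atria, was at 1.63, 1.13 and 1.22 CPM in knockout and 1.69, 2.58 and 1.85 CPM in control hearts (log2 fold change -0.61, interval -1.33 to 0.11). Cacna1g, a T-type channel of pacemaker and conduction tissue, was at 2.91, 3.40 and 2.62 CPM in knockout and 5.24, 4.05 and 4.21 CPM in control hearts (log2 fold change -0.60, SE 0.24, interval -1.14 to -0.07, edgeR adjusted p = 0.694). In both of these the 3 knockout hearts lay below all 3 control hearts, at levels of a few CPM. In deposited CPM this held for Cacna1g but not for Cacna1d.

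The remaining pore genes overlapped between the groups. Cacna1h, the other T-type channel detected, was at 1.49, 2.72 and 3.55 CPM in knockout and 1.05, 2.03 and 2.78 CPM in control hearts (log2 fold change 0.40, and 0.08 without knockout heart 3). Cacna1s, the L-type channel of skeletal muscle, was at 2.17, 3.93 and 4.05 CPM in knockout and 4.35, 3.50 and 3.31 CPM in control hearts (log2 fold change -0.13, interval -0.81 to 0.54), and Cacna1a, a channel of nerve terminals, at 4.54, 3.78 and 2.38 CPM in knockout and 4.76, 3.68 and 3.44 CPM in control hearts. These values show no separation of the groups. The skeletal muscle marker list, which holds Scn4a and Cacna1s and of whose 10 genes 4 were tested, summed to 434, 855 and 526 CPM in knockout and 833, 1073 and 1310 CPM in control hearts, carried mainly by Acta1 and Ckm, which heart also expresses. Its part in the levels of those channel genes was not tested.

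The auxiliary calcium channel subunits help the pore reach the membrane and set its gating. Cacnb2, the main beta subunit of heart, was at 50.2, 38.9 and 39.3 CPM in knockout and 52.0, 36.8 and 35.4 CPM in control hearts (log2 fold change 0.05, interval -0.44 to 0.54). Cacna2d1, the alpha2delta subunit to which gabapentin binds, was at 39.2, 47.1 and 63.8 CPM in knockout and 60.2, 46.2 and 67.6 CPM in control hearts (log2 fold change -0.21, interval -0.76 to 0.33). Both overlapped widely. Cacna2d2 was at 0.813, 1.51 and 2.49 CPM in knockout and 1.37, 1.66 and 4.63 CPM in control hearts, where control heart 3 was the high value and the log2 fold change of -0.67 became 0.10 without it. Cacnb4 was at 4.40, 3.10 and 2.38 CPM in knockout and 3.47, 5.43 and 4.43 CPM in control hearts (log2 fold change -0.43) and Cacnb1 at 2.30, 4.24 and 1.83 CPM in knockout and 2.66, 2.86 and 2.05 CPM in control hearts (log2 fold change 0.14, and -0.30 without knockout heart 2). Cacnb3 and the gamma subunit gene Cacng6 stayed near 1 CPM or under in both groups. The ratio of Cacnb2 to Cacna1c per kb was 1.02, 0.606 and 0.937 in knockout and 0.822, 0.454 and 0.669 in control hearts, and that of Cacna2d1 to Cacna1c was 0.848, 0.781 and 1.62 in knockout and 1.01, 0.609 and 1.36 in control hearts, both with overlap.

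The pacemaker genes of the HCN family encode channels opened by hyperpolarisation and by cyclic nucleotides. Hcn4, the main pacemaker channel of the sinoatrial node, was at 0.949, 0.605 and 2.22 CPM in knockout and 1.45, 1.11 and 1.85 CPM in control hearts (log2 fold change -0.20, interval -1.31 to 0.90, and -0.92 without knockout heart 3). Hcn2 was at 1.63, 3.55 and 1.27 CPM in knockout and 1.69, 1.66 and 3.24 CPM in control hearts (log2 fold change -0.07). The groups overlapped in both, and neither interval lay within 2-fold either way. The 10 conduction system markers, which include Hcn4 and Cacna1d and of which 7 were tested, summed to 36.0, 25.3 and 26.4 CPM in knockout and 34.9, 41.6 and 40.6 CPM in control hearts, and 1 of the 7 lay above 0.

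**Figure D3:**
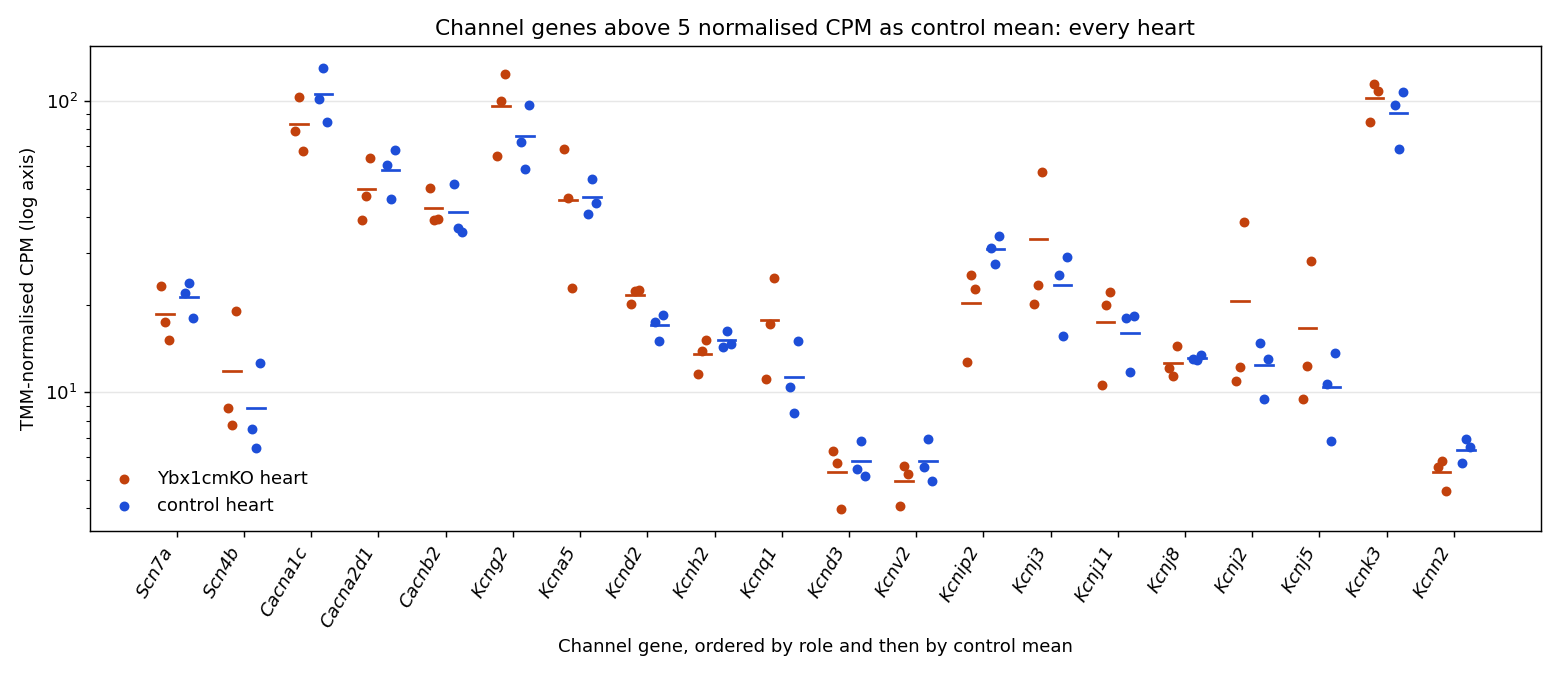
Normalised CPM (vertical log axis) in each heart for 20 of the 22 channel genes with a control mean of at least 5 normalised CPM (horizontal axis, ordered by role), with knockout hearts left of control hearts and a line at each mean of 3. The knockout points lie below the control points in Kcnip2 and above them in Kcnd2, and in most other genes the points interleave.

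The transient outward current, which shapes early repolarisation in mouse ventricle, is carried by pore genes of the Kcnd family and Kcna4 with auxiliary subunits, and none of the genes given here passed the threshold. Kcnip2 encodes a calcium-binding partner that the fast current requires. It was at 12.7, 25.3 and 22.6 CPM in knockout and 31.3, 27.5 and 34.5 CPM in control hearts. On this TMM scale no knockout heart reached the lowest control heart. The means were 20.2 ± 6.63 CPM in knockout and 31.1 ± 3.49 CPM in control hearts (SD, n = 3 each), with a log2 fold change of -0.62 (SE 0.26, interval -1.22 to -0.02, edgeR adjusted p = 0.694). Knockout heart 1 was the lowest, and without it the log2 fold change was -0.38. With library totals only the log2 fold change was -0.49. In deposited CPM knockout hearts 2 and 3 lay above control heart 2, so the groups overlapped on that scale. Of the 10 ventricular cardiomyocyte markers 4 lay above 0, with a median of -0.21, and their part in the Kcnip2 values was not tested. Kcnd2, the pore gene of that current, was at 20.1, 22.2 and 22.5 CPM in knockout and 17.5, 15 and 18.5 CPM in control hearts. Every knockout heart was above every control heart by a small margin (log2 fold change 0.34, SE 0.17, interval -0.05 to 0.74, edgeR adjusted p = 0.694).

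A ratio of subunits taken within a heart does not depend on the scaling between libraries. The ratio of Kcnip2 to Kcnd2 in CPM per kb was 0.938, 1.69 and 1.49 in the knockout hearts and 2.65, 2.72 and 2.77 in the control hearts. The 3 control hearts lay close together, and the knockout mean was 0.506 of the control mean. This pair was taken from the members with the smallest p, so the ratio is a description with no test. Of the 1128 ratios that the 48 tested members can form, 12.8% had groups that did not overlap. Kcnd3, a related pore gene, was at 6.30, 5.75 and 3.99 CPM in knockout and 5.48, 6.82 and 5.16 CPM in control hearts (log2 fold change -0.12, interval -0.68 to 0.43), and Kcna4, the pore of the slow transient outward current, at 0.339, 0.529 and 1.05 CPM in knockout and 1.29, 0.368 and 0.794 CPM in control hearts, too low to test. Irx3 and Irx5 encode homeodomain factors, and Irx5 is known to repress Kcnd2 in mouse ventricle. Irx5 was at 7.52, 8.17 and 7.76 CPM in knockout and 10.3, 6.17 and 8.80 CPM in control hearts (log2 fold change -0.11, interval -0.62 to 0.40), with overlap, and Irx3 at 16.7, 17.8 and 28.2 CPM in knockout and 13, 9.12 and 15.9 CPM in control hearts, without overlap (log2 fold change 0.72, interval 0.08 to 1.35, edgeR adjusted p = 0.694). In deposited CPM the Irx3 groups overlapped.

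The promoters of these genes show what lies upstream of members that lay on opposite sides of the control level. Y-box proteins were named for binding the Y-box, an inverted CCAAT element, so CCAAT and its reverse complement ATTGG were searched on the 250 bases before each RefSeq start (GRCm38.p6, which is not the authors' build). Of the 62 members 43 had a window, 62 windows in all, and 15 windows of 14 genes held the letters (24.2%), beside 33.8% of all 32851 windows. Kcnip2 had 2 matches, beginning -242 and -69 bases from the start, and Kcnd2 had 0. The other member windows with at least as many matches as Kcnip2 were of Kcnab2 (5) and Kcnt2 (2). Both genes lay above 0 (log2 fold changes 0.35 and 0.19). The number of matches was not tested against direction. The GC box GGGCGG or CCGCCC stood in 41.9% of member windows and 32.7% of all windows, and TATAAA or TTTATA in 3.23% and 12.4%. A match describes letters only, and its absence says only that they are not in this window. The sequences below run 5′ to 3′ on the gene's strand, with CCAAT or ATTGG in capitals, from chr19:45816064-45816313 (minus strand) for Kcnip2 and chr6:21215096-21215345 (plus strand) for Kcnd2.
Kcnip2: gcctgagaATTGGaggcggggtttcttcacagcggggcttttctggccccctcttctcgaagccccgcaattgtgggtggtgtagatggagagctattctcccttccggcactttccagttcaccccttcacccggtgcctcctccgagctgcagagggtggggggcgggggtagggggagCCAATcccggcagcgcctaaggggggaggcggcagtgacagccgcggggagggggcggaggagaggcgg
Kcnd2: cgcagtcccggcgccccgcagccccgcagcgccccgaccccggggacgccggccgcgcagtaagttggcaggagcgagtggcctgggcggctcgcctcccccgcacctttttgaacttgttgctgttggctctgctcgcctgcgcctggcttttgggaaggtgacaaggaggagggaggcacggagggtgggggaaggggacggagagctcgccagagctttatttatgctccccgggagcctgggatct

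**Figure D4:**
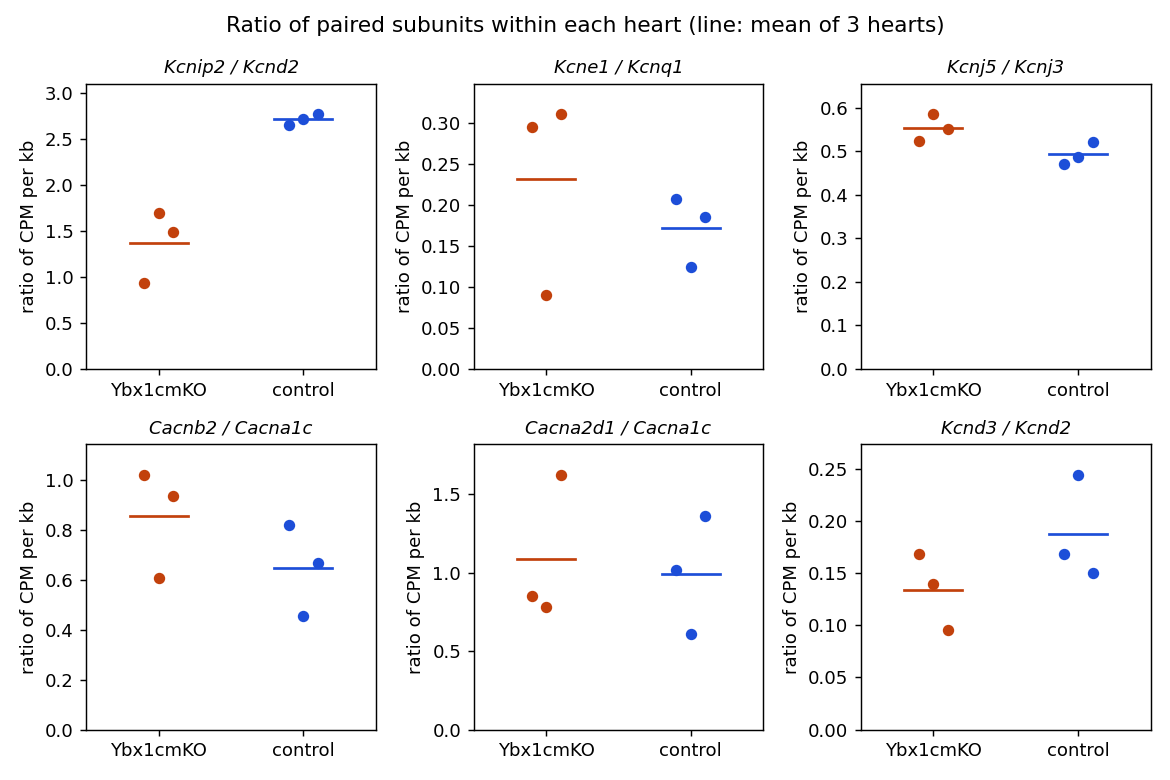
Ratio of the CPM per kb of an auxiliary or partner gene to that of its pore gene (vertical axes, from 0) in each knockout heart (left) and control heart (right), with a line at the mean of 3 hearts, for 6 pairs. Kcnip2 over Kcnd2 is lower in every knockout heart than in every control heart, Kcnj5 over Kcnj3 is separated by a narrow gap, and the other 4 pairs overlap.

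The delayed rectifiers complete repolarisation. Kcna5 was at 68.2, 46.4 and 22.8 CPM in knockout hearts, spanning both sides of the control values of 41.0, 54.1 and 44.8 CPM (log2 fold change -0.03, -0.43 without knockout heart 1 and 0.30 without knockout heart 3). Kcnh2, the pore of the rapid delayed rectifier and the gene of a form of long QT syndrome in humans, was at 11.6, 13.8 and 15.1 CPM in knockout and 14.4, 16.3 and 14.6 CPM in control hearts (log2 fold change -0.16, interval -0.57 to 0.25). Both overlapped between the groups, and the interval of Kcnh2 lay within 2-fold either way. The silent modifier genes Kcng2, at 64.7, 99.9 and 124 CPM in knockout and 72.1, 58.6 and 96.7 CPM in control hearts (log2 fold change 0.34), and Kcnv2, at 4.07, 5.60 and 5.27 CPM in knockout and 5.56, 6.91 and 4.96 CPM in control hearts (log2 fold change -0.22), overlapped as well.

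Kcnq1 and Kcne1 encode the pore and the auxiliary subunit of the slow delayed rectifier, a current that adult mouse ventricle carries little of. Kcnq1 was at 11.1, 17.2 and 24.8 CPM in knockout and 10.4, 8.47 and 15 CPM in control hearts (log2 fold change 0.64, interval -0.09 to 1.38, edgeR adjusted p = 0.694, and 0.31 without knockout heart 3). Kcne1 was at 2.57, 1.21 and 6.04 CPM in knockout and 1.69, 0.829 and 2.18 CPM in control hearts (log2 fold change 1.05, interval -0.25 to 2.36, and 0.25 without knockout heart 3). For both the highest value of all was in knockout heart 3. Knockout heart 1 lay within the control range in Kcnq1, and knockout heart 2 did in Kcne1. Kcnq1 shares 121 of its 4093 exon bases with the antisense RNA Kcnq1ot1, which was at 48.1, 42.5 and 9.56 CPM in knockout and 42.0, 92.2 and 40.7 CPM in control hearts, and without a strand setting reads in the shared part cannot be assigned. The heart with the least Kcnq1ot1, knockout heart 3, had the most Kcnq1, and the reverse held at the other end, in control heart 2. These libraries were also the lowest and the highest in Malat1 (668 and 7923 deposited CPM). The relation of Kcnq1ot1 to Kcnq1 was not tested. The ratio of Kcne1 to Kcnq1 per kb was 0.295, 0.0898 and 0.311 in knockout and 0.207, 0.125 and 0.185 in control hearts, with overlap.

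Kcna1 and Kcna2 encode delayed rectifiers of axons. Kcna1 was at 3.86, 2.72 and 1.72 CPM in knockout and 3.23, 6.36 and 3.51 CPM in control hearts (log2 fold change -0.65), and Kcna2 at 2.51, 1.41 and 0.896 CPM in knockout and 2.05, 3.21 and 2.13 CPM in control hearts (log2 fold change -0.61). Knockout heart 1 lay within the control range in both. Kcnc1, a fast delayed rectifier of neurons, had its high value in knockout heart 2 (0.678, 3.03 and 1.16 CPM in knockout, 0.806, 1.47 and 1.26 CPM in control hearts, log2 fold change 0.44, and -0.35 without that heart). Of the other auxiliary genes, Kcne4 was at 2.17, 1.36 and 3.27 CPM in knockout and 2.42, 1.29 and 1.52 CPM in control hearts (log2 fold change 0.39) and Kcnab2 at 1.69, 1.36 and 0.831 CPM in knockout and 0.887, 1.29 and 0.860 CPM in control hearts (log2 fold change 0.35), with overlap.

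The inward rectifiers hold the resting potential and answer to acetylcholine and to ATP. Kcnj2, the main pore of the resting inward rectifier current, was at 11.0, 12.3 and 38.4 CPM in knockout and 14.8, 9.49 and 13 CPM in control hearts (log2 fold change 0.73, interval -0.32 to 1.78). Kcnj3 and Kcnj5 form the channel opened by acetylcholine in the atria. Kcnj3 was at 20.1, 23.4 and 56.9 CPM in knockout and 25.3, 15.6 and 29.2 CPM in control hearts (log2 fold change 0.52, interval -0.41 to 1.45) and Kcnj5 at 9.49, 12.3 and 28.2 CPM in knockout and 10.7, 6.82 and 13.7 CPM in control hearts (log2 fold change 0.68, interval -0.27 to 1.63). In all 3 genes knockout heart 3 held the high value and the other knockout hearts lay within the control range. Without knockout heart 3 the log2 fold changes were -0.10, -0.11 and 0.05 for Kcnj2, Kcnj3 and Kcnj5. The ratio of Kcnj5 to Kcnj3 per kb was 0.525, 0.585 and 0.551 in knockout and 0.471, 0.487 and 0.522 in control hearts, so the proportion in knockout heart 3 was close to that in the other hearts, and the groups were separated by a narrow gap.

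The sequences upstream of these 3 genes are given because all 3 were highest in knockout heart 3. Kcnj2 (chr11:111065914-111066163, plus strand) held 1 CCAAT or ATTGG, beginning -71 bases from the start, Kcnj3 (chr2:55435720-55435969, plus strand) held 1 at -188, and Kcnj5 (chr9:32344345-32344594, minus strand) held 0. GC boxes numbered 2 in Kcnj2, 0 in Kcnj3 and 2 in Kcnj5. The capitals mark CCAAT or ATTGG as above, and the sequences are RefSeq's in GRCm38.p6.
Kcnj2: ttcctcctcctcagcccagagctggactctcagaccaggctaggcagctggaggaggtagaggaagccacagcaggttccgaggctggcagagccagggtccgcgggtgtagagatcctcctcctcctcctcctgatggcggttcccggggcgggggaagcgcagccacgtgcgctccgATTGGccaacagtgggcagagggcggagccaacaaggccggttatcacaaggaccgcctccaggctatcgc
Kcnj3: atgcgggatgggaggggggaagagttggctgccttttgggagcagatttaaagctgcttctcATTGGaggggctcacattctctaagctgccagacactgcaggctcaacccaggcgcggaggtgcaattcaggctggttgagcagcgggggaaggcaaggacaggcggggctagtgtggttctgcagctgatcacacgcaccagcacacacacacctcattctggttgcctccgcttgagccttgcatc
Kcnj5: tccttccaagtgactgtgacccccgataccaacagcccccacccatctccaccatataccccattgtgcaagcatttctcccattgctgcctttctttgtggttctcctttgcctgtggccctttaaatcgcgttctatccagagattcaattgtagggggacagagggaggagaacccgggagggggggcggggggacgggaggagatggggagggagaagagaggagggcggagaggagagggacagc

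The ATP-sensitive channel genes lay close to the control level. Kcnj11, the pore of the sarcolemmal ATP-sensitive channel, was at 10.6, 19.9 and 22.1 CPM in knockout and 18, 11.8 and 18.3 CPM in control hearts (log2 fold change 0.13, interval -0.56 to 0.81). Kcnj8, the pore gene of the vascular form and a pericyte marker, was at 12.1, 11.3 and 14.4 CPM in knockout and 13, 12.9 and 13.5 CPM in control hearts (log2 fold change -0.05, interval -0.45 to 0.35), with the smallest spread among the control hearts of any tested member, a coefficient of variation of 2.45%. Of their sulfonylurea receptor genes, Abcc9 was at 54.4, 53.8 and 74.7 CPM in knockout and 59.2, 41.7 and 52.6 CPM in control hearts and Abcc8 at 4.40, 5.75 and 7.65 CPM in knockout and 5.56, 4.61 and 5.95 CPM in control hearts. Kcnj12, another pore of the resting current, was at 2.71, 4.69 and 2.55 CPM in knockout and 3.63, 3.87 and 4.83 CPM in control hearts (log2 fold change -0.32) and Kcnj15 at 1.15, 1.66 and 0.610 CPM in knockout and 0.968, 0.645 and 1.85 CPM in control hearts (log2 fold change -0.08). Groups overlapped in each of these genes.

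Background and calcium-activated potassium genes gave no separation. Kcnk3 was at 84.3, 114 and 108 CPM in knockout and 96.6, 68.3 and 107 CPM in control hearts (log2 fold change 0.17, interval -0.35 to 0.69), which lay within 2-fold either way. Kcnk6 was at 3.13, 2.87 and 1.61 CPM in knockout and 3.23, 3.13 and 2.31 CPM in control hearts (log2 fold change -0.19), and Kcnk2, a stretch-sensitive channel, at 0.881, 0.908 and 1.11 CPM in knockout and 0.968, 1.20 and 1.26 CPM in control hearts without a test. Kcnn2 and Kcnn1 encode small-conductance channels opened by calcium. Kcnn2 was at 5.56, 5.82 and 4.6 CPM in knockout and 5.73, 6.91 and 6.48 CPM in control hearts (log2 fold change -0.26), and Kcnn1 at 2.57, 3.93 and 2.88 CPM in knockout and 3.79, 3.68 and 5.56 CPM in control hearts (log2 fold change -0.48). Kcnt2, opened by sodium, was at 6.23, 4.92 and 3.66 CPM in knockout and 4.52, 4.33 and 4.10 CPM in control hearts (log2 fold change 0.19). Kcnma1, the large-conductance calcium-activated channel of smooth muscle, was at 1.15, 0.832 and 0.333 CPM in knockout and 0.484, 1.01 and 0.992 CPM in control hearts, and its smooth muscle partner Kcnmb1 at 1.22, 0.983 and 0.582 CPM in knockout and 1.05, 0.691 and 0.860 CPM in control hearts, both under the filter. Of the 10 smooth muscle and pericyte markers, all tested and Kcnj8 among them, 2 lay above 0, with a median of -0.15, and they summed to 779.7, 531 and 508 CPM in knockout and 726, 630.5 and 589.6 CPM in control hearts. Their part in the values of Kcnj8, Kcnma1 and Kcnmb1 was not tested.

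Knockout heart 3 set many of the extreme values. In 6 of the 48 tested members, with Kcne1, Kcnj2, Kcnj5, Kcnj3 and Scn4b among them, it was at least 2 times the mean of the other 5 hearts (12.5% of members, beside 5.55% of all tested genes). The ratio reached 3.56 in Kcne1 and 3.17 in Kcnj2. It was the highest of the 6 hearts in 14 members (29.2%, beside 33.9% of all tested genes) and the lowest in 20 (41.7%, beside 34.3%). Among its low members were Kcna2, Kcna1, Kcna5 and Scn3a, at 0.397 to 0.448 of the mean of the other 5. This library also had low mitochondrial rRNA and Malat1, and of the knockout libraries only this one expressed Xist (201 deposited CPM). The part of these features in its values was not tested. Without knockout heart 3, 22 members lay above and 26 below 0, with a median of -0.09. Over the 6 fits that left out a library, 28 of the 48 members kept their direction in all 6 and 20 turned in at least 1.

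**Figure D5:**
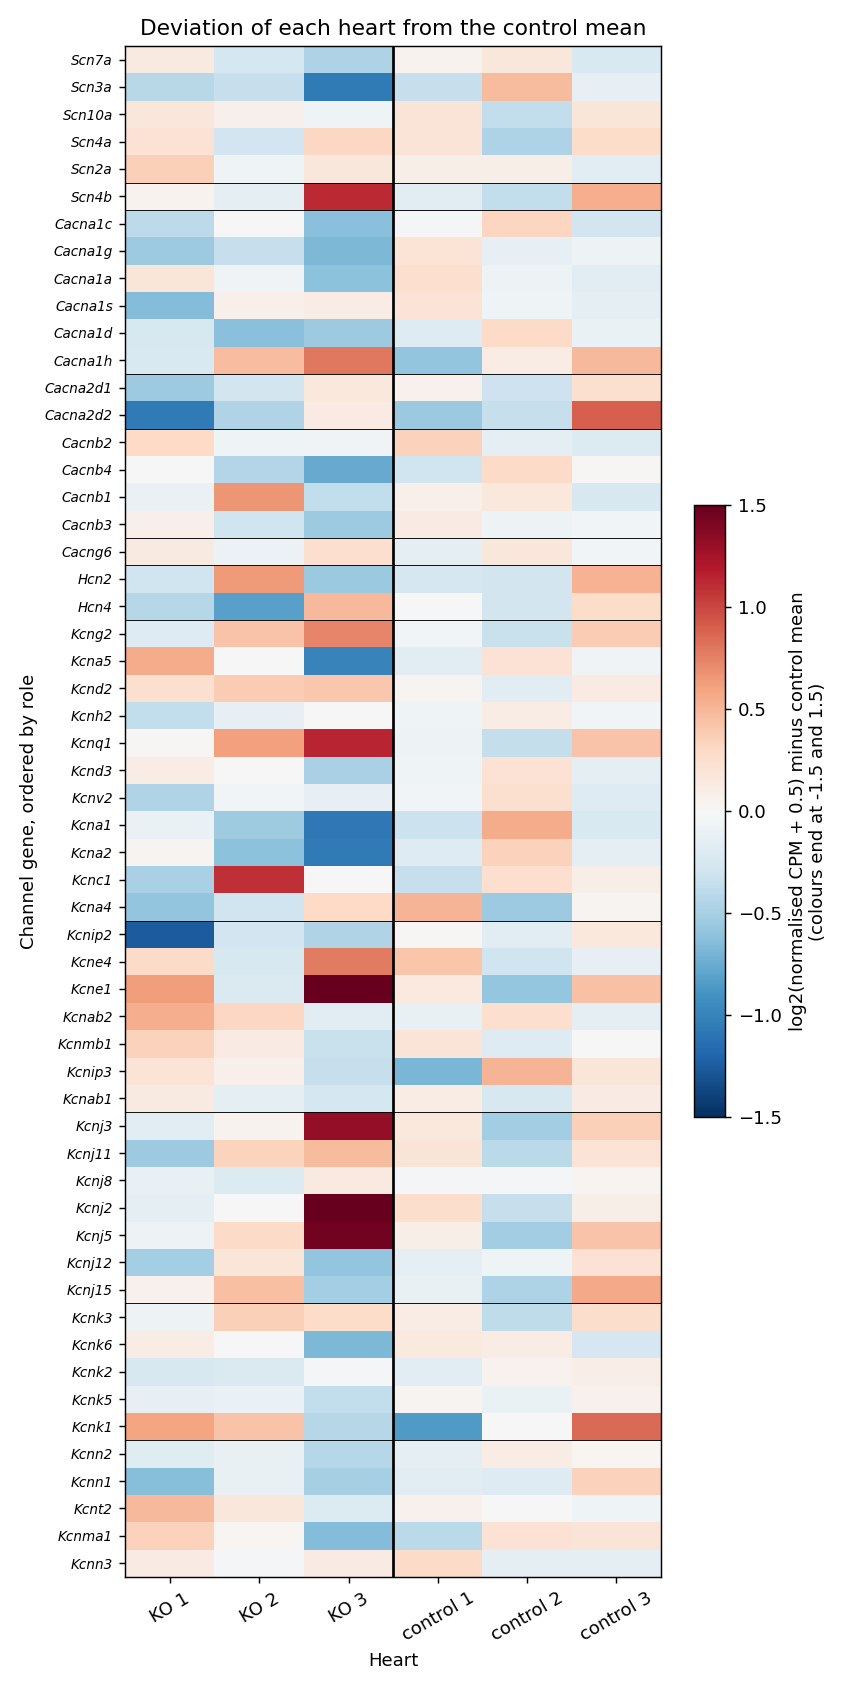
Deviation of each heart from the control mean on the scale of log2(normalised CPM + 0.5) (colour, red above and blue below, ending at -1.5 and 1.5) for 56 of the 62 channel genes (rows, ordered by role), with knockout hearts 1 to 3 left and control hearts 1 to 3 right of the line. Knockout heart 3 holds the darkest red cells, in Kcne1, Kcnj2 and Kcnj5, and dark blue ones in Kcna1, Kcna2 and Scn3a, and Kcnip2 and Kcnd2 keep one colour over the 3 knockout hearts.

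All 62 members together were at 696, 806 and 847 normalised CPM in knockout hearts 1, 2 and 3 and at 788, 744 and 831 CPM in control hearts 1, 2 and 3. The groups overlapped. Such a sum weighs the abundant genes most, and the 5 members with the highest control CPM held 47.4% of the sum in knockout and 49.3% in control hearts.

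Genes that place, anchor or regulate these channels were looked at as a list of 36, of which 31 were tested. Of these, 19 lay above and 12 below 0, with a median log2 fold change of 0.15 (-0.02 without knockout heart 3), and 0 passed the adjusted threshold in edgeR, DESeq2 or limma-trend. Trpm4, a cation channel opened by calcium, was at 6.47, 5.37 and 2.55 CPM in knockout and 8.71, 13.1 and 7.01 CPM in control hearts, without overlap (log2 fold change -1.0, interval -1.83 to -0.17, edgeR adjusted p = 0.694). It was the list's 1 gene with an unadjusted edgeR p below 0.05 (3.23% of the list, beside 5.14% of all tested genes). Groups did not overlap in 3 of the 31, which is 9.68% beside 12.1% of all tested genes. Rangrf, which takes part in bringing channels to the membrane, was at 13.9, 15.2 and 14.2 CPM in knockout and 15.8, 15.5 and 18.9 CPM in control hearts, also without overlap (log2 fold change -0.22, interval -0.61 to 0.18). Ryr2, the calcium release channel of the sarcoplasmic reticulum, was at 702, 753 and 671 CPM in knockout and 882, 789.6 and 873 CPM in control hearts, again without overlap (log2 fold change -0.26, interval -0.70 to 0.18). In deposited CPM Trpm4 stayed without overlap, while Rangrf and Ryr2 overlapped. The anchor gene Ank2 was at 72.9, 89.1 and 59.0 CPM in knockout and 82.5, 88.2 and 78.5 CPM in control hearts (log2 fold change -0.17), and Rrad, an inhibitor of the L-type channel, at 92.3, 108 and 221 CPM in knockout and 99.8, 80.8 and 80.8 CPM in control hearts (log2 fold change 0.69, and 0.20 without knockout heart 3). Both overlapped between the groups.

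Of 18 transcription factors of chamber and conduction identity 15 were tested, with 6 above and 9 below 0, a median of -0.04 and 0 past the adjusted threshold in edgeR, DESeq2 or limma-trend. Irx3 was the 1 gene of this list with an unadjusted edgeR p below 0.05 (6.67%, beside 5.14% of all tested genes), and groups did not overlap in Irx3 and Shox2 (13.3%, beside 12.1%). Tbx5, an activator of chamber and conduction genes, was at 5.76, 9.98 and 17.1 CPM in knockout and 9.29, 7.46 and 10.9 CPM in control hearts (log2 fold change 0.25), and Tbx3, a repressor of chamber genes in conduction tissue, at 16.7, 12.3 and 7.65 CPM in knockout and 15.8, 20.8 and 14.7 CPM in control hearts (log2 fold change -0.49). Etv1, a factor of fast-conducting atrial and Purkinje cells, was at 13.1, 14.4 and 17.9 CPM in knockout and 15.5, 16.4 and 17.7 CPM in control hearts (log2 fold change -0.13, interval -0.56 to 0.30). These overlapped as well. Shox2, a factor of the sinoatrial node, was at 1.36, 1.21 and 1.39 CPM in knockout and 1.61, 1.57 and 1.98 CPM in control hearts, without overlap and near the test's filter (log2 fold change -0.39, interval -1.05 to 0.27). In deposited CPM the groups overlapped in both Irx3 and Shox2.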

How the data were processed

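Polyadenylated RNA of 6 hearts was sequenced after oligo(dT) priming, second-strand synthesis and tagmentation, per the labels' protocols. Per the submitters' processing notes the tools were edgeR 4.0.16, Subread 2.1.1 with featureCounts, STAR 2.7.11 and SAMtools 1.22.1, on the build mm39, without a statement of what each did. Annotation, strand setting and the treatment of multi-mapping reads are not stated there. The authors' deposited estimated counts, of which 21.3% to 22.7% of the detected genes in a library had a fraction, were rounded to whole numbers. The authors' deposited CPM equalled the count over the column's total and chose the members.

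Genes with at least 1 CPM in 3 of 6 libraries were tested with the quasi-likelihood F-test of edgeR 4.0.16 in R 4.3.3 (TMM scaling, no covariate), all 6 libraries in 1 fit, with Benjamini-Hochberg adjustment over all 13717 genes and a threshold of 0.05. Printed CPM are normalised by TMM unless called deposited. Standard errors come from the F statistic. Alternatives used DESeq2 1.42.0, limma 3.58.1 on log2(CPM + 0.5), other scalings and filters, and fits without each library. No 2 libraries agreed within sampling noise (chi-square per gene at least 13.8). The labels do not say that equal heart numbers pair animals, and they were not treated as pairs. Because the labels name separate hearts, p-values rest on the spread between these 6 heart samples, with variance estimates moderated across genes. Whether each sample held RNA of a single animal is not stated. The scripts were tested on simulated data with less spread between libraries than was fitted here and no outlying library. That test covers the sign and size of known changes, not the power in these data. The depth of 12270796 to 15141525 counts limits the precision of genes near 1 CPM.

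The members and lists were chosen with earlier results of these data known. Genes named with values are a list of cardiac current genes, the 10 tested members with the smallest p, and the genes at the edge of the control threshold. Members named beyond these were chosen after their values were seen. Some members are counted but not reported by name here, and figures leave them out. Sequence windows are RefSeq's.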

Additional observations from a re-analysis of the deposited data

How the results depend on the processing

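With the 48 tested members, the count past the adjusted threshold was 0 in edgeR, DESeq2, limma-trend, both other scalings, the fit on nuclear protein-coding genes, the replicate block, all 6 fits without a library, and, added after seeing the data, the fit without the 2 libraries that express Xist. It was also 0 of 62 with a filter at 0.5 CPM or none. At an unadjusted edgeR p below 0.05 there were 5. For the 33 genes of the naming rule with a fit, all 495 fits under alternatives kept their side of the threshold. No member passed in the main fit, so this count does not speak to direction. Direction turned in 10 of the 48 members (20.8%) without the 2 libraries that express Xist. It turned in 7 with library totals only and in 5 in limma-trend. With DESeq2's size factors, nuclear protein-coding genes only or the replicate block it turned in 0. These shares were not taken over all genes. Members above 0 numbered 17 to 23 without each library, 25 in limma-trend and 27 with library totals only. Their median log2 fold change was -0.10 and took the other sign in limma-trend on the deposited CPM (0.0132, all genes 0.14) and with library totals only (0.0149, all genes 0.17). Neither used TMM factors, limma-trend also changed the model and the scale, and the cause was not tested. It ranged from -0.19 (without knockout heart 2) to -0.0431 (without control heart 3) when leaving out each library. Among all genes the number past the threshold was 0 in edgeR, 15 in DESeq2, 133 of 33251 without a filter, 5 without the Xist libraries, and 0 to 3 without each library (3 without knockout heart 3) (cause not tested). With the heart number as a replicate block, 5 of all genes passed and the members' median was -0.14. The block was not taken as a pairing, since the deviations of equally numbered hearts correlated at -0.114 for heart 1, 0.463 for heart 2 and 0.586 for heart 3, and not every heart correlated best with its own number. Depth limits genes near 1 CPM, where 14 members stayed untested.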

Other observations

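Of the 138 protein-coding channel genes 76 lay below the control threshold, and 22 of these had 0 counts in all 6 libraries. They were not tested, and the genes named here were chosen after their values were seen. Kcnt1, a sodium-activated potassium channel that missed the threshold by less than 0.01 CPM, had 2, 2 and 1 counts in knockout hearts 1, 2 and 3 and 5, 11 and 4 counts in control hearts 1, 2 and 3. Kcnc4, a fast-inactivating potassium channel, had 0, 1 and 0 counts in knockout and 2, 4 and 3 counts in control hearts, and Kcnmb4, a partner of the large-conductance channel, 0, 1 and 1 counts in knockout and 4, 3 and 2 counts in control hearts. Cacna2d3, an alpha2delta subunit, had 5, 8 and 10 counts in knockout and 1, 2 and 3 counts in control hearts, and Kcnj14, an inward rectifier, 12.5, 4 and 4 counts in knockout and 2, 2 and 1 counts in control hearts. Groups did not overlap in counts in 10 of the 54 channel genes below the threshold that had a count (4 higher and 6 lower in knockout hearts, 18.5%), beside 5.79% of all protein-coding genes below it that had a count, and the 5 named are those of the 10 with the most counts. Their totals were at most 29 counts over the 6 hearts. Over all such protein-coding genes 189 lay higher and 74 lower, and selection by a low control mean favours the higher side. The counts were not scaled for depth, and the 2 sets were not matched for count level. No result is read from these shares. By the knockout mean instead of the control mean, 2 of the 76 would have reached 0.5 CPM.

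Exons of 23 of the 62 members overlap an annotated gene on the other strand in GENCODE M21. The strand setting of the counting is not known, so such reads are uncertain. Apart from Kcnq1ot1, partners with reads included D330025C20Rik beside Kcng2, at 1.76 to 4.6 CPM in knockout and 1.47 to 3.70 CPM in control hearts, and Gm9899 beside Kcnk3, at 1.77 to 3.86 CPM in knockout and 2.51 to 4.24 CPM in control hearts.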
